A study of Mus musculus with 4 samples.

Results

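The genes described here are 8 regulators of skeletal muscle formation in embryonic skull libraries: the myogenic regulatory factors Myf5, Myod1, Myog and Myf6, the fusion proteins Mymk and Mymx, and the transcription factors Msc and Mef2c. They were chosen by name, and each of the 8 symbols matched 1 row of the 55487 Ensembl gene IDs in the count table through the GENCODE annotation of GRCm38. All 8 passed the filter on low counts, which left 20947 genes for testing. Poly(A) RNA came from mouse calvaria, the vault of the skull, at E14.5, in days of embryonic development. There were 2 libraries of the frontal bone and 2 of the parietal and interparietal bones together, called parietal-interparietal below. No genetic change or treatment is named for either group, and the sources used here do not state strain, sex or the number of embryos per library. The labels do not tell whether the libraries of a group are separate embryos. P-values therefore reflect the spread between these libraries alone, and that spread may be technical.

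Skeletal muscle forms in steps that these genes mark. Pax3, Pax7 and other upstream factors hold progenitors in the lineage, and Myf5 and Myod1, basic helix-loop-helix (bHLH) factors that bind the E-box sequence as dimers with E proteins, commit cells to the myoblast fate. Myog drives differentiation together with factors of the MEF2 family, Myf6 acts early in some progenitors and again in muscle fibres, and the membrane proteins myomaker (Mymk) and myomixer (Mymx) then fuse myoblasts into fibres. Muscles of the head use a partly separate upstream programme, in which the bHLH repressor Msc (musculin, also called MyoR) takes part. Mef2c is not restricted to muscle, since cortical neurons, endothelium, microglia and cartilage also express it.

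The labelled tissue was checked against osteoblast markers. This list and the other gene lists below were written with earlier results of these data known. Runx2 and Sp7, the factors that commit cells to bone, lay between 10.7 and 16.3 and between 9.94 and 12.9 over the 4 libraries, given as CPM (counts per 1000000 counts of the library) on library sizes scaled by TMM, edgeR's trimmed mean method. Bglap and Dmp1, which mark mature osteoblasts and osteocytes, were under 1 CPM in all 4. Other genes of the 12 osteoblast markers stood higher, with Phex between 2.64 and 5.54 CPM. Ibsp was at 81.2 and 92.4 CPM in frontal against 40.9 and 40.7 CPM in parietal-interparietal libraries. Of the 12, 2 were called higher in frontal libraries and 1 lower (Col1a1, −0.61 log2 units), against 6.25% and 6.44% of all genes tested. Total counts lay between 24069177 and 35555013 per library. The libraries also held RNA of other head tissues. Of 16 forebrain neuron markers 11 were higher in frontal libraries and 0 lower, and their summed level was 854 and 870 CPM in the frontal libraries against 495 and 505 CPM in the parietal-interparietal libraries. The part of this difference in tissue content in the results below was not tested. In bulk samples, fewer cells of a type and less RNA per cell cannot be told apart.

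Sequences upstream of the transcription start were given by RefSeq (GRCm38.p6) for 3 of the 8 genes: Myf5, Myog and Mef2c. The 250 bases before the start of Myog and of Myf5 are shown because these genes mark a later and an early step of the pathway, and because their factors and MEF2 proteins recognise short motifs. Capitals mark matches to the E-box CANNTG and to CTANNNNTA, both searched on both strands. CTANNNNTA is looser than the MEF2 motif, whose central bases are A or T. Myog lies on the plus strand at chr1:134289754-134290003 and Myf5 on the minus strand at chr10:107486135-107486384.
Myog: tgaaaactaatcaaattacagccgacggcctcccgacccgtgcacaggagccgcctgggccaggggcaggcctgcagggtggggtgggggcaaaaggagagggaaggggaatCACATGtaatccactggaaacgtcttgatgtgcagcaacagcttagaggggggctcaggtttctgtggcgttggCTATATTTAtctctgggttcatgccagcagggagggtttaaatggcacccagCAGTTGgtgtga
Myf5: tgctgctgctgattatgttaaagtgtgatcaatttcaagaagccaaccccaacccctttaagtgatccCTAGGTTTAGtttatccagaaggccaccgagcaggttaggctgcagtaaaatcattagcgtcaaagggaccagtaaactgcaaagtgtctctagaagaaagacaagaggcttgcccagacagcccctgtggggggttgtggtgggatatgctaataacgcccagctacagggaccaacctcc
The Myog window held 2 matches to CANNTG, which begin 138 and 12 bases before the start, and 1 match to CTANNNNTA, which begins 64 bases before it. The Myf5 window held 0 matches to CANNTG and 2 matches to CTANNNNTA, which overlap each other on opposite strands. Both hold G or C at central positions, unlike the Myog match CTATATTTA. Mef2c has 3 starts in the table. Their windows held 2, 0 and 1 matches to CANNTG and 0, 0 and 1 matches to CTANNNNTA. The Mef2c match CTAACGATA also holds G and C at central positions. Of 32851 upstream windows of the same length, 66.2% held CANNTG, 19.0% held CTANNNNTA and 13.0% held both, so a match of either kind is common, and it is a description of the letters only.

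All 8 genes were lower in both frontal libraries than in both parietal-interparietal libraries. Over all genes tested, 28.4% stood that way and 28.9% the opposite way. With edgeR's quasi-likelihood test and Benjamini-Hochberg adjustment over all genes, 5 of the 8 were called lower at an adjusted p under 0.05 (Myod1, Myog, Myf6, Mymk and Msc), 3 were not called (Myf5, Mymx and Mef2c) and 0 were higher. Of all genes tested 6.44% were called lower, 6.25% higher and 12.7% were called in either direction. The median log2 fold change, frontal minus parietal-interparietal, was −0.65 over the 8 genes and 0.01 over all genes tested.

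**Figure D1:**
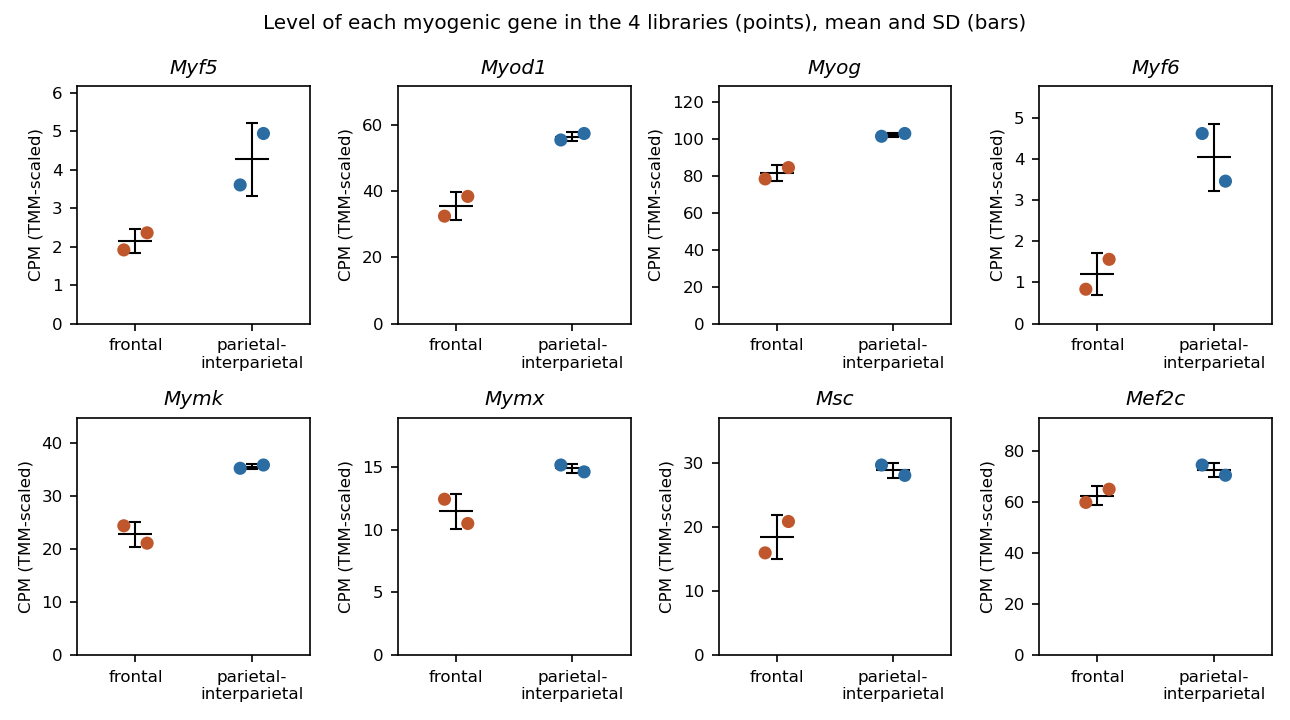
Level of each of the 8 genes in CPM (TMM-scaled; vertical axis from 0) in the 2 frontal libraries and the 2 parietal-interparietal libraries (points), with mean and SD (bars, n = 2). In every panel both frontal points lie below both parietal-interparietal points, with the widest relative gap for Myf6 and the narrowest for Mef2c.

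Of the determination factors, Myod1 was abundant and Myf5 scarce. Myod1 (ENSMUSG00000009471, protein-coding, chromosome 7, 46376474 to 46379099) had 934 and 1354 counts in frontal libraries 1 and 2, or 32.5 and 38.5 CPM. It had 1357 and 1560 counts in parietal-interparietal libraries 1 and 2, or 55.5 and 57.5 CPM. The groups did not overlap, and the frontal pair was further apart than the other pair. Frontal libraries had 1.59-fold lower Myod1 (35.5 ± 4.22 against 56.5 ± 1.38 CPM, mean ± SD, n = 2 each; a log2 change of −0.67 with an SE of 0.11, and an adjusted p of 0.00321 by edgeR). It was the 1 gene of the 8 whose call held under each of the 13 alternatives.

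Myf5 (ENSMUSG00000000435, protein-coding, chromosome 10, 107482908 to 107486134) had 55 and 83 counts in the frontal libraries, 1.91 and 2.36 CPM, and 88 and 134 counts in the parietal-interparietal libraries, 3.6 and 4.94 CPM. Both frontal values were lower, and the parietal-interparietal libraries also differed from each other, with library 2 above library 1. The log2 fold change of −1.0 ± 0.31 SE did not pass the threshold (edgeR adjusted p = 0.0611). Myf5 was called lower without either frontal library (adjusted p = 0.0317 without library 1 and 0.0032 without library 2).

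Myf6, also called Mrf4 (ENSMUSG00000035923, protein-coding, chromosome 10, 107492853 to 107494737), lies 6718 bases from Myf5 on the same strand. It had 24 and 55 counts in the frontal libraries, 0.834 and 1.56 CPM. In the parietal-interparietal libraries it had 113 and 94 counts, 4.62 and 3.46 CPM. It had the largest fold change of the 8 and the fewest counts, and both frontal libraries were well below the others. Myf6 was 3.33-fold lower (1.20 ± 0.514 against 4.04 ± 0.820 CPM, n = 2 each; a log2 change of −1.74 with an SE of 0.39, and an adjusted p of 0.0157 by edgeR). The fold change was −2.28 without frontal library 2 and −1.37 without frontal library 1, and the call was lost without parietal-interparietal library 1 (adjusted p = 0.126).

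Myog, which encodes myogenin (ENSMUSG00000026459, protein-coding, chromosome 1, 134289989 to 134292548), was the most abundant of the 4 myogenic factors. It had 2249 and 2970 counts in the frontal libraries, 78.2 and 84.3 CPM. The parietal-interparietal libraries had 2475 and 2789 counts, 101 and 103 CPM. The difference was small but wider than either pair's own spread, 1.26-fold in all, with frontal libraries lower (81.3 ± 4.34 against 102 ± 1.06 CPM, n = 2 each; a log2 change of −0.33 with an SE of 0.09, and an adjusted p of 0.0311 by edgeR). Leaving out parietal-interparietal library 1 ended this call (adjusted p = 0.35), as did leaving out library 2 or summing the pair (adjusted p = 0.384 in each).

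The genes whose 4-library profile was nearest to that of Myog, by root mean square distance between centred log2 CPM values among 14036 genes, were Sec22a, Per1, Stmn2, Lix1l, Lrrc71 and Sri, at distances between 0.00735 and 0.00979 log2 units. None of them is a member of the muscle lists used here. With 4 values per profile and 14036 genes compared, distances this small can arise between unrelated genes. The names are therefore a description only.

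Of the fusion genes, Mymk was called lower in frontal libraries and Mymx was not. Mymk (ENSMUSG00000009214, protein-coding, chromosome 2, 27061636 to 27072179) had 702 and 744 counts in the frontal libraries, 24.4 and 21.1 CPM, and 862 and 974 counts in the parietal-interparietal libraries, 35.3 and 35.9 CPM. It was 1.56-fold lower (22.8 ± 2.32 against 35.6 ± 0.438 CPM, n = 2 each; a log2 change of −0.65 with an SE of 0.12, and an adjusted p of 0.00569 by edgeR). Leaving out parietal-interparietal library 2, or summing that pair, ended the call (adjusted p = 0.057 in each).

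Mymx (ENSMUSG00000079471, protein-coding, chromosome 17, 45600971 to 45602102) had 357 and 369 counts in the frontal libraries, 12.4 and 10.5 CPM. It had 370 and 396 counts in the parietal-interparietal libraries, 15.1 and 14.6 CPM. The groups did not overlap, yet the log2 fold change of −0.38 ± 0.15 SE was not called (edgeR adjusted p = 0.131). It was called lower without frontal library 1 (−0.50, adjusted p = 0.00775). A difference between the fold changes of Mymk and Mymx was not tested.

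The 2 remaining factors act beside the myogenic factors. Msc, a bHLH repressor of myogenic factors that also serves in head muscle progenitors (ENSMUSG00000025930, protein-coding, chromosome 1, 14753346 to 14755992), had 458 and 733 counts in the frontal libraries, 15.9 and 20.8 CPM. The parietal-interparietal libraries had 724 and 760 counts, 29.6 and 28 CPM. Msc was 1.56-fold lower (18.4 ± 3.46 against 28.8 ± 1.15 CPM, n = 2 each; a log2 change of −0.65 with an SE of 0.14, and an adjusted p of 0.0152 by edgeR). The call ended when parietal-interparietal library 1 (adjusted p = 0.117) or library 2 (0.0562) was left out, and when the pair was summed (0.091). An antisense gene, Gm9947, overlaps exons of Msc and had between 0 and 24 counts per library. No source used here gives the strand setting of the counting, so reads of these 2 genes cannot be told apart.

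Mef2c (ENSMUSG00000005583, protein-coding, chromosome 13, 83504034 to 83667080) had 1719 and 2287 counts in the frontal libraries, 59.8 and 64.9 CPM, and 1819 and 1911 counts in the parietal-interparietal libraries, 74.4 and 70.4 CPM. It had the smallest difference of the 8, with a log2 fold change of −0.22 ± 0.09 SE (edgeR adjusted p = 0.163), and was called lower without frontal library 2 (−0.29, adjusted p = 0.000505). Marker lists of other cells that express Mef2c are given beside it. Forebrain neuron markers were higher in frontal libraries by the counts given above. Of 12 endothelial markers 1 was higher (Cldn5, 0.42) and 1 lower (Cdh5, −0.62 log2 units), and their summed level was 553 and 510 CPM in frontal against 627 and 611 CPM in parietal-interparietal libraries. Of 12 macrophage and microglia markers 2 were lower and 0 higher, and of 12 cartilage markers 3 were lower and 2 higher. Over all genes 6.44% were called lower and 6.25% higher. The summed macrophage level was 319 and 301 CPM in frontal against 377 and 374 CPM in parietal-interparietal libraries. Median log2 fold changes were −0.18 (endothelial), −0.27 (macrophage) and −0.13 (cartilage), against 0.01 over all genes. Of the 12 macrophage values 11 were negative, as were 10334 of the 20947 genes tested. In either direction together, the endothelial and macrophage counts lie near the 12.7% called over all genes. The part of these cells in the Mef2c value was not tested.

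The nearest profiles to Mef2c were those of Abcg2, Mme, Bace1, Map3k11, Nolc1 and Abl1, at distances between 0.00463 and 0.0109 log2 units by the same measure. None of these 6 genes was called by edgeR's test, with adjusted p-values between 0.151 and 0.234. The limit given for the profiles nearest to Myog holds for these as well.

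The frontal libraries did not differ from each other in the same direction for all 8 genes. Frontal library 1 was below frontal library 2 for the 4 myogenic factors, Msc and Mef2c, by 0.11 log2 units for Myog, 0.24 for Myod1, 0.30 for Myf5, 0.39 for Msc and 0.90 for Myf6. For the fusion genes it was above, by 0.21 log2 units for Mymk and 0.24 for Mymx. The summed skeletal muscle markers were likewise higher in frontal library 1, at 2569 against 2401 CPM. Leaving out frontal library 1 therefore made the fold changes of Mymk and Mymx larger and those of the other 6 genes smaller, and leaving out frontal library 2 did the reverse.

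**Figure D2:**
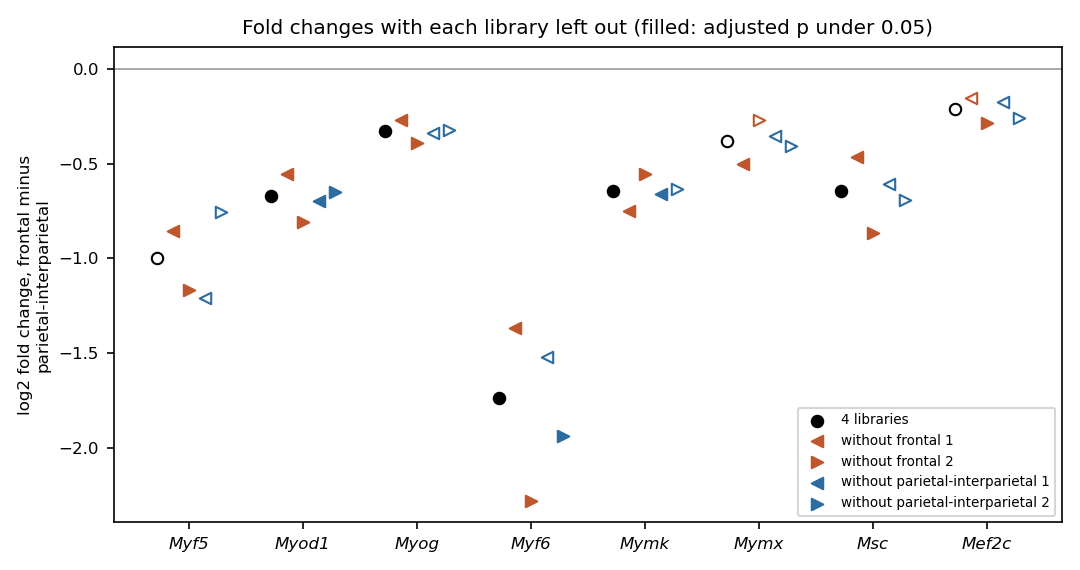
Log2 fold change of each gene (vertical axis, frontal minus parietal-interparietal) with 4 libraries and with each library left out in turn; filled symbols have an edgeR adjusted p under 0.05. All values are below 0, and without either parietal-interparietal library most symbols are open.

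The number of genes called depended on which pair was left whole. It was 7 of 8 without either frontal library, where 24.2% (without library 1) and 32.6% (without library 2) of all genes tested were called. It was 2 of 8 without either parietal-interparietal library, Myod1 and Mymk without library 1 and Myod1 and Myf6 without library 2, where 3.89% and 3.84% of all genes were called. Summing the parietal-interparietal pair into 1 sample likewise left 2 of 8, Myod1 and Myf6, against 3.38% of all genes. In each of these fits all 8 log2 fold changes were below 0.

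Levels were ordered per kilobase of merged exons. In both groups the order of the first 6 was Myog, Myod1, Mymk, Mymx, Msc and Mef2c. In the parietal-interparietal libraries Myog was at 68.2 ± 0.709 CPM per kilobase, Myod1 at 30.4 ± 0.744, Mymk at 23.5 ± 0.290, Mymx at 14.48 ± 0.377, Msc at 11.3 ± 0.450 and Mef2c at 4.61 ± 0.181 (SD, n = 2). In the frontal libraries Myog was at 54.4 ± 2.90 CPM per kilobase, Myod1 at 19.1 ± 2.27, Mymk at 15.1 ± 1.54, Mymx at 11.1 ± 1.33, Msc at 7.22 ± 1.36 and Mef2c at 3.97 ± 0.233. Myf5 and Myf6 stood last. In the frontal libraries they were at 1.02 ± 0.151 and 0.949 ± 0.407 CPM per kilobase and did not differ beyond their spread. In the parietal-interparietal libraries they were at 2.05 ± 0.454 and 3.20 ± 0.649, with Myf6 above Myf5 in both. The merged exons of Mef2c span 15.7 kilobases against 6.28 for its longest protein-coding transcript, which puts it at 11.5 instead of 4.61 CPM per kilobase in the parietal-interparietal libraries. With every gene set per kilobase of its longest protein-coding transcript, Msc was at 16.6 there and Mef2c kept its place in the order.

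Differentiated skeletal muscle genes were lower in frontal libraries too. Of 24 tested markers 16 were called lower and 0 higher (6.44% and 6.25% over all genes), with a median log2 fold change of −0.49. They included the embryonic myosin heavy chain Myh3 (374 ± 8.75 against 551 ± 6.27 CPM, n = 2 each), the cardiac alpha-actin Actc1, which embryonic skeletal muscle expresses (302 ± 9.32 against 440 ± 1.5 CPM), and the fast troponin genes Tnni2 and Tnnt3 (log2 fold changes −0.68 and −0.55). Leaving out frontal library 1 or 2 gave 20 or 17 calls. Leaving out parietal-interparietal library 1 gave 4, and leaving out library 2 or summing the pair gave 5. The share called over all genes also rose and fell in these fits, as given above. The summed level of the list was 2569 and 2401 CPM in the frontal and 3250 and 3234 CPM in the parietal-interparietal libraries. Nkx2-5 and Nppa, defining genes of the heart in the heart and smooth muscle list, were at or below 0.556 CPM in all 4 libraries. Other heart genes of that list were low but present, with the cardiac myosin heavy chain Myh6 at 2.05 and 2.73 CPM in frontal and 3.68 and 3.8 CPM in parietal-interparietal libraries and Tbx5 at up to 1.59 CPM. Of that list's 10 tested genes 1 was lower, Tnnt2, which embryonic skeletal muscle also expresses.

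Each gene was therefore also set against the summed skeletal muscle markers of its own library, as CPM per 1000 CPM of markers, as a description with no test. The denominator was itself lower in frontal libraries, which raises every gene there on this scale. On it 4 of the 8 genes were lower in both frontal libraries, as were 8.49% of all genes tested, and 1 was higher in both, as were 60.4%. Myf6 was at 0.325 and 0.650 in the frontal and 1.42 and 1.07 in the parietal-interparietal libraries. Myf5 was at 0.744 and 0.982 against 1.11 and 1.53, Myod1 at 12.6 and 16 against 17.1 and 17.8, and Mymk at 9.50 and 8.80 against 10.9 and 11.1. The groups overlapped for Myog (30.4 and 35.1 against 31.2 and 31.8), for Mymx (4.83 and 4.36 against 4.66 and 4.51) and for Msc (6.20 and 8.67 against 9.11 and 8.66). Mef2c was higher in both frontal libraries, at 23.3 and 27.0 against 22.9 and 21.8. With the 8 markers outside the sarcomere as denominator, Myod1 overlapped as well, and Myog and Mymx joined Mef2c above. By that denominator 6.15% of all genes tested were lower and 66.7% higher in both frontal libraries.

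**Figure D3:**
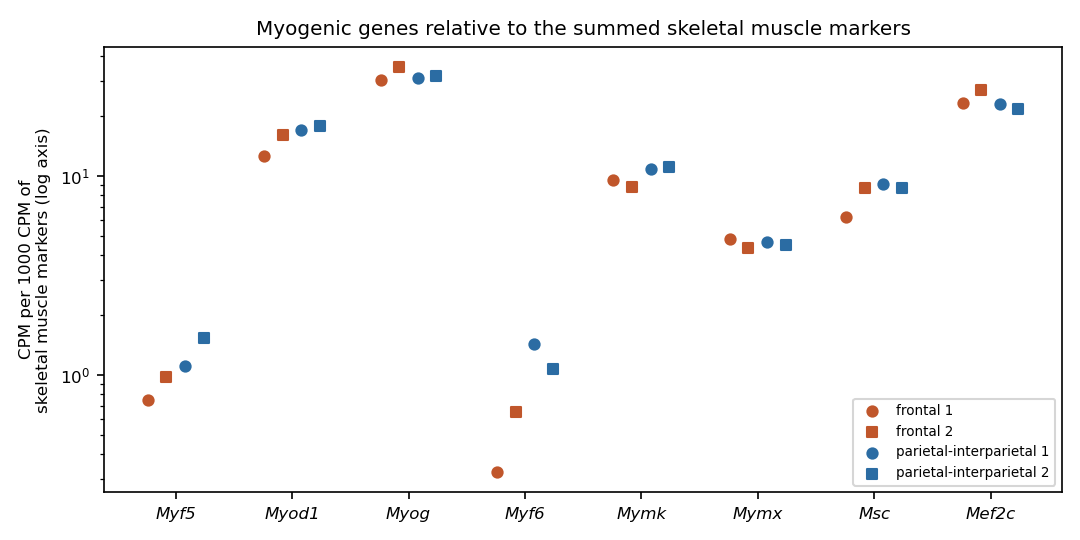
CPM of each gene per 1000 CPM of the summed skeletal muscle markers (vertical log axis) in each of the 4 libraries. Myf5, Myod1, Myf6 and Mymk lie lower in both frontal libraries, Myog, Mymx and Msc overlap, and Mef2c lies higher in both frontal libraries.

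Upstream factors of head and trunk myogenesis were mixed. Of 15 tested genes 5 were lower and 0 higher in frontal libraries, against 6.44% and 6.25% over all genes. The median log2 fold change was −0.09. With DESeq2, which gave values for all 16 genes of the list, the median was −0.28. Pax7, which marks muscle progenitors and also midbrain and craniofacial mesenchyme, was at 7.86 and 8.55 CPM in frontal and 15.3 and 18.5 CPM in parietal-interparietal libraries (log2 fold change −1.04 ± 0.16 SE, edgeR adjusted p = 0.00225). Pax3, its paralog, was at 5.95 and 8.06 against 14.8 and 12.2 CPM (−0.94 ± 0.19, adjusted p = 0.0111). Isl1, a LIM homeobox factor of part of the head muscle progenitors and also of sensory and motor neurons, had the largest difference of the list, at 10.2 and 12 against 35.7 and 35.2 CPM (−1.67 ± 0.13, adjusted p = 3.99e-05). Meox2, a homeobox factor of limb muscle precursors, had a log2 fold change of −0.47. Tcf21, the head muscle factor that acts together with Msc, had at most 10 counts per library and was not tested. Leaving out frontal library 1 or 2 gave 7 or 6 genes called lower. Leaving out parietal-interparietal library 1 gave 2, and leaving out library 2 or summing the pair gave 3. As given above, the share called over all genes also rose and fell in these fits. Pax7 and Isl1 kept their call in each of these fits, and Pax3 lost it without parietal-interparietal library 1.

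Among 27 partners and inhibitors of the myogenic factors, 5 were lower and 4 higher, against 6.44% and 6.25% over all genes. The median log2 fold change was −0.16. The lower genes were Snai1, a repressor that competes for E-boxes (29.0 ± 2.58 against 55.5 ± 0.572 CPM, n = 2 each; a log2 change of −0.94 with an SE of 0.10, and an adjusted p of 0.000422 by edgeR), the muscle cofactors Vgll2 and Csrp3 (−0.75 and −0.72), Twist1, a bHLH inhibitor of the myogenic factors (−0.39), and the MEF2 family member Mef2d (−0.39). The higher genes were Id4, an inhibitor that sequesters E proteins (41.2 ± 4.62 against 17.8 ± 0.823 CPM; a log2 change of 1.21 with an SE of 0.12, and an adjusted p of 0.00025 by edgeR), the E protein Tcf4 (0.64), Mdfi, which retains myogenic factors in the cytoplasm (0.61), and Mef2b. Id4 and Tcf4 are also neural genes, and most of the forebrain markers above moved the same way. Their part in these values was not tested. Mef2b had 44 and 28 counts in the frontal libraries against 0 and 2. Tcf3 and Tcf12, the other E proteins, were not called.

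In this list 10 and 12 genes were called lower without frontal library 1 or 2, 1 and 2 without parietal-interparietal library 1 or 2, and 1 with the pair summed. The number called higher was 4 and 6 without frontal library 1 or 2, 2 and 3 without parietal-interparietal library 1 or 2, and 3 with the pair summed. The share called over all genes, given above, rose without a frontal library and fell without a parietal-interparietal library or with that pair summed. Snai1, Id4 and Tcf4 kept their call in all of these fits.

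The wider machinery of myoblast fusion went both ways. Of 26 tested adhesion and membrane genes 5 were lower and 2 higher, against 6.44% and 6.25% over all genes. The number higher lies near that share. The median log2 fold change was −0.26. Dock5, a Rac activator, was at 25.6 and 23.0 CPM in frontal and 39.8 and 39.4 CPM in parietal-interparietal libraries (−0.70 ± 0.11 SE, edgeR adjusted p = 0.00248). Elmo2, a partner of DOCK proteins, was at 68.5 and 72.1 against 106 and 110 CPM (−0.62 ± 0.09, adjusted p = 0.00136). The adhesion genes Nectin1, Kirrel and Itgb1 had log2 fold changes of −0.69, −0.35 and −0.34. These are expressed in many cell types. The higher genes were the receptors Adgrb1 and Adgrb3, at 1.31 and 0.59 log2 units, both also abundant in brain. Cdh15, the muscle cadherin, was at 30.9 and 19.2 CPM in frontal and 33.8 and 31.3 CPM in parietal-interparietal libraries and was not called.

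Without frontal library 1 or 2, 10 and 12 of these fusion genes were called lower. Leaving out either parietal-interparietal library, or summing the pair, left 3, and 8 were called with no scaling beyond the total count. As given above, the share called over all genes also rose without a frontal library and fell without a parietal-interparietal library. Dock5, Elmo2, Nectin1 and Adgrb1 kept their call in all of these fits, and Adgrb3, Kirrel and Itgb1 lost it without either parietal-interparietal library. The number called higher was 4 and 2 without frontal library 1 or 2 and 1 without either parietal-interparietal library.

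**Figure D4:**
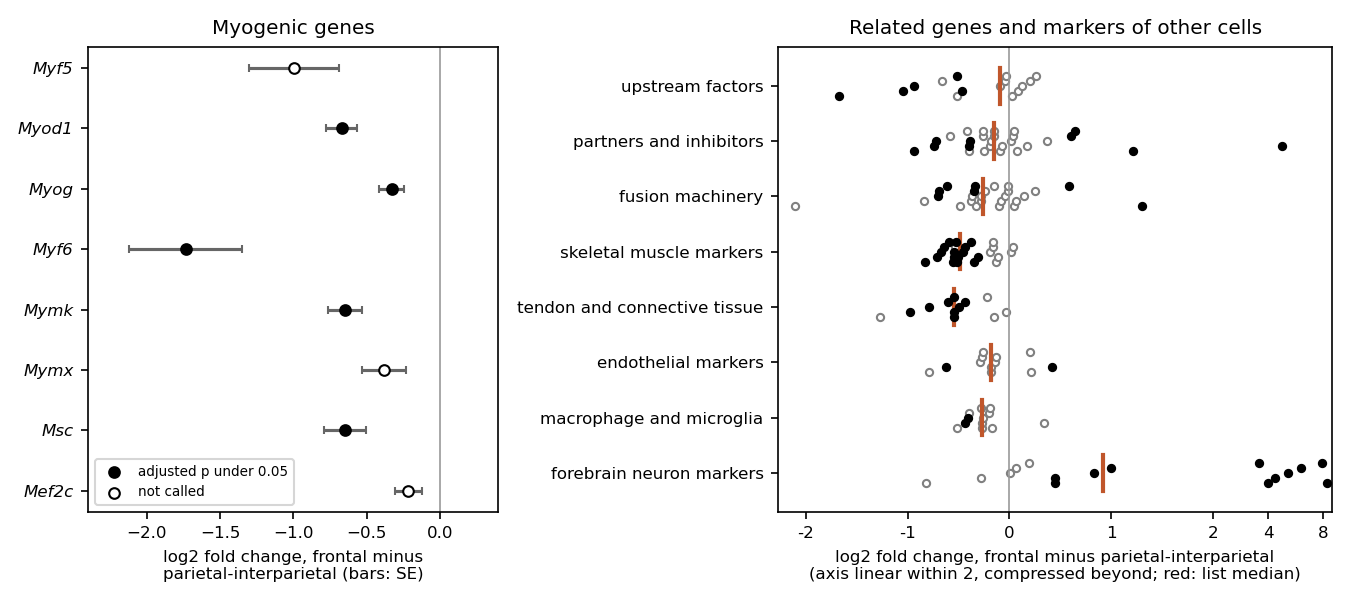
Left, log2 fold change (frontal minus parietal-interparietal) of the 8 genes with SE, filled where the edgeR adjusted p is under 0.05. Right, the same for genes of 8 related lists, 1 point per gene, with list medians in red, from −0.54 for tendon and connective tissue to 0.91 for forebrain neuron markers; that axis is compressed beyond 2.

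Markers of tendon and of the connective tissue of muscle were lower in frontal libraries as well. Of 12 markers 8 were lower and 0 higher (6.44% and 6.25% over all genes), with a median log2 fold change of −0.54. They included Scx and Mkx, transcription factors of tendon (both −0.54), and Tcf7l2, a factor of muscle connective tissue (−0.49). Tnmd, a membrane protein of mature tendon, was at 30.5 and 41.3 CPM in frontal and 37.9 and 35.7 CPM in parietal-interparietal libraries and was not called (−0.03). Pdgfra, a receptor of many mesenchymal cells, was at 243 ± 12.9 against 420 ± 7.50 CPM (n = 2 each; a log2 change of −0.79 with an SE of 0.08, and an adjusted p of 0.000187 by edgeR). The number called lower was 10 without either frontal library, 3 when either parietal-interparietal library was left out and 2 when the pair was summed. The share called over all genes also rose and fell in the same fits, as given above.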

How the data were processed

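The authors deposited 1 table of whole-number counts per Ensembl gene and library, without any scaling. The submitters' processing notes name the build GRCm38, the counter featureCounts 2.0.1, the aligner HISAT2 2.1.0 and the trimmer Trim Galore 0.6.7. Their settings, including strand and mate counting, are not given in the sources used. Of counts between 1 and 20, between 68.3% and 74.4% were even, so halved counts were also tried. Gene positions and lengths came from GENCODE release M21, and 1 list symbol was matched by a RefSeq synonym (Kirrel).

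The 8 genes and the 11 gene lists were chosen with earlier results of these data known. Genes were filtered with filterByExpr (minimum count 10), given TMM factors, and tested (two-sided) by quasi-likelihood in edgeR 4.0.16 (R 4.3.3; group as the only term, 2 residual degrees of freedom), called at a Benjamini-Hochberg adjusted p under 0.05. SE is the absolute log2 fold change over the square root of F. The text names the 8 genes, up to 4 genes per list with the smallest p, and the 6 profiles nearest to Myog and Mef2c (mean of at least 1 CPM, pseudocount 0.01). Meox2, Tcf21, Tcf3, Tcf12, Mef2b, Mef2d, Twist1, Mdfi, Vgll2, Kirrel, Itgb1, Adgrb3, Cdh15, Scx, Mkx, Tnmd, Runx2, Sp7, Bglap, Dmp1, Phex, Nkx2-5 and Nppa lie outside that rule and were named after their values were seen. A gene that the rule names but the text does not is not reported here. The pair of each group differed by more than sampling noise, their variance being 11.1 (frontal) and 2.93 (parietal-interparietal) times the binomial value over genes with 100 or more counts in the pair, or 5.57 and 1.46 times with counts halved. Each pair was entered as 2 samples. Figures were drawn with matplotlib 3.10.9.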

Additional observations from a re-analysis of the deposited data

How the results depend on the processing

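All 8 genes kept a negative log2 fold change under the 13 alternatives. These were other scaling factors (RLE), total counts only, DESeq2 1.42.0, no filter, a mean of at least 1 CPM, a replicate block, halved counts, the parietal-interparietal pair summed, each library left out and, added after seeing the data, edgeR's bias-adjusted quasi-dispersion. With the pair summed, 791 genes in all were called against 2657, 2 of the 8 genes against 5, 3 upstream factors lower, 1 partner or inhibitor lower, 3 fusion machinery genes lower and 1 higher, and 5 skeletal muscle markers lower. This fit has fewer samples. With total counts only, 8 fusion machinery genes were called lower, and over all genes 984 were called higher and 1606 lower, against 1309 and 1348 with TMM.

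With 1 library left out, counts ranged from 865 to 7279 over all genes, from 2 to 7 for the 8 genes, from 2 to 7 lower and 0 to 1 higher for upstream factors, from 1 to 12 lower and 2 to 6 higher for partners and inhibitors, from 3 to 12 lower and 1 to 4 higher for fusion machinery, and from 4 to 20 lower for skeletal muscle markers. These fits take the residual spread from the pair left whole, and the lone sample is assumed to vary like the others. Same-numbered libraries did not deviate together (r = 0.01 across 16789 genes). This 1 correlation cannot settle whether the replicate number pairs libraries, and the labels do not say. With the replicate number as a block 3306 genes were called, and 6 of the 8 genes, with Myf5 added (edgeR adjusted p = 0.0331). No filter also called Myf5 (0.0236). The lowest count behind a value of the 8 genes was 24, for Myf6 in frontal library 1, so depth limits Myf6 and Myf5 most.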
